A study of Mus musculus with 8 samples.

Results

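The ribosome biogenesis factors studied here are genes whose proteins make, modify and assemble the ribosome, together with a few relatives by name. The rule goes by symbol, although it was written with earlier results of these data known: protein-coding genes named Utp, Nop, Rrp or Nol with a number, Noc with a number and l, or Polr1a to Polr1e, plus 14 listed genes such as Ncl, Npm1, Fbl and Srm. The rule found 56 genes of 24506 in the count table, and 55 of them had enough counts to be tested. By known role, 9 serve RNA polymerase I, 9 belong to or assist the small nucleolar ribonucleoproteins (snoRNPs), 18 act in small-subunit and 14 in large-subunit assembly, and 2 are abundant nucleolar proteins. The last 4 have other known roles or none established in ribosome assembly.

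RNA was sequenced in bulk from mouse T-cell progenitors in 4 groups of 2 libraries. Every group came from bone-marrow progenitors of B6 mice that carried CRISPR-Cas9, Bcl2 and Bcl11b-mCherry/mCherry, so control cells carried these alleles too. Bcl2 blocks cell death, and the reporter marks cells that have switched on Bcl11b, a T-lineage commitment gene. Progenitors spent a night in IL-7, Flt3l and SCF and then received control guides, or 3 guides against Stat5a and 3 against Stat5b (sgStat5), by retrovirus. They grew for 6 days on OP9-DLL1, a stromal line that presents the Notch ligand DLL1, with IL-7 and Flt3l at 10 ng/ml each. From the lineage-marker-negative, infected, CD25+ cells, mCherry-negative (pre-commitment, the early gate) and mCherry-positive (post-commitment, the late gate) cells were sorted. For the late gate the submitters' design text contradicts itself, as it gives these cells as mCherry-positive and yet as lacking the reporter; the sample titles give them as Bcl11b-positive, and that reading was used. The target of the control guides, the age of the mice and the promoters of the Cas9 and Bcl2 alleles are not given in the sources used here. Each library is a pool of infected cells, in which editing can differ from cell to cell.

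As background, a ribosome starts in the nucleolus, where RNA polymerase I transcribes the long ribosomal RNA precursor. The snoRNPs modify that precursor at many positions, and large assemblies of UTP, NOP and related proteins fold and cut it into the small and large subunits. The demand for ribosomes follows cell growth, and MYC is a known activator of many of these genes in lymphocytes. IL-7, a growth and survival cytokine of early T cells, signals through the transcription factors STAT5A and STAT5B.

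Total counts ran from 22146490 to 31209177 per library. Levels between libraries are given as CPM, the count relative to the library total after TMM scaling, with replicate 1 before replicate 2. Stat5a RNA was 258 and 257 CPM in early controls against 106 and 105 with sgStat5, and 257 and 238 in late controls against 116 and 107 with sgStat5. Stat5b RNA was 255 and 249, 144 and 133, 280 and 255, and 154 and 135 CPM in that order, so both targeted RNAs were lower in every sgStat5 library. Bcl11b RNA was 132 and 45.6 CPM in early controls against 132 and 70.1 with sgStat5, and 542 and 219 in late controls against 797 and 415 with sgStat5, above the early library of the same guide and number in all 4 pairs. Libraries of the same replicate number deviated together in all groups, so a fit with the number as a block (the blocked fit) is given beside the one without it.

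Members of the set spanned a wide range of levels. Per kilobase of transcript, mean FPKM over the 8 libraries was 905 for Npm1 (nucleophosmin), 177 for Ncl (nucleolin) and 162 for Fbl (fibrillarin, the methyltransferase of box C/D snoRNPs). On the same scale Polr1d, a subunit shared by RNA polymerases I and III, led the polymerase I factors at 58.3 FPKM. Utp11l led the small-subunit factors at 44.7, Rrp1 the large-subunit factors at 109 and Srm the genes with other roles at 71.8 FPKM. At the low end stood Nol3 at 2.38, Utp14b at 2.32 and Nol4 at 0.0199 FPKM. Nol4 had 0 to 10 counts per library and was not tested. Ncl and Npm1 alone took 35.3 to 40.4% of the counts of all 56 members.

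The summed level of the 56 genes was ordered by group. It was 11649 and 11785 CPM in early controls against 10234 and 10920 with sgStat5, and 8537 and 10200 in late controls against 6984 and 8016 with sgStat5. Every late sgStat5 library was below every other library, while late control replicate 2 almost reached early sgStat5 replicate 1. The members took 1.14 and 1.18% of all counts in early control and 0.704 and 0.823% in late sgStat5 libraries. Of the 56 genes, 47 had their lowest group mean in late sgStat5 cells, against 32.1% of all genes tested, and 40 had their highest mean in early control cells, against 23.8%. In such bulk samples, fewer cells with high levels and less RNA per cell cannot be told apart.

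**Figure D1:**
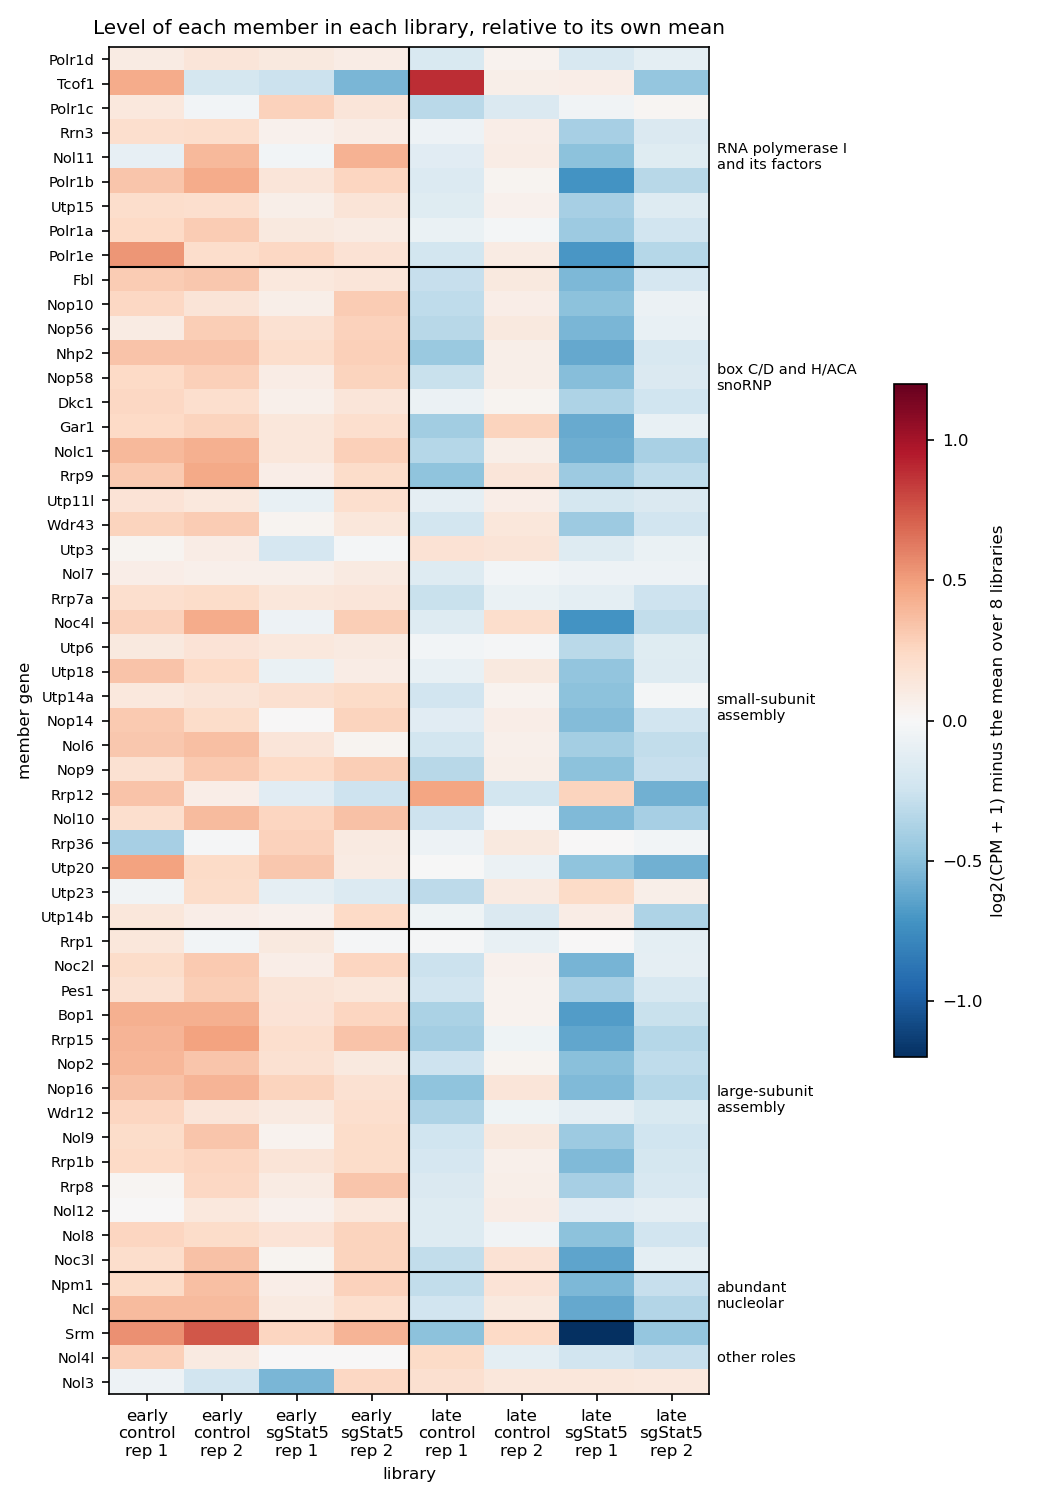
Each row is a member of the set, grouped by role, and each column a library; colour gives log2(CPM + 1) minus the gene's own mean over the 8 libraries. Most rows run from higher values in early control to lower values in late sgStat5 libraries, while Tcof1, Polr1c, Rrp36, Utp23 and Nol3 run otherwise.

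The first question was how sgStat5 cells differed from control cells after commitment. In the late gate 51 of 55 members had a log2 fold change below 0, against 52.3% of all genes, with a median of -0.28 over members and -0.02 over all genes. The median was -0.24 in pair 1 and -0.27 in pair 2 on the log2(CPM + 1) scale. In the edgeR quasi-likelihood test with Benjamini-Hochberg adjustment 0 members passed the threshold of 0.05 without the block, where 1.71% of all genes passed in either direction. At an unadjusted p under 0.05 there were 15 members, all lower, against 1713 of 13775 genes, 997 of them lower. DESeq2 called 1 member (Utp20), a smaller share than that of all genes, and limma on log2(FPKM + 1) called 0. In the blocked fit 9 members, or 16.4%, fell and 0 rose, against 4.49% of all genes called lower and 3.72% called higher. The 9 were Utp20, Tcof1, Noc4l, Ncl, Polr1b, Srm, Npm1, Nolc1 and Dkc1. Both sgStat5 libraries lay below both controls for 24 members (43.6%; background 20.8%) and above both for 1 (background 18.1%). In both replicate pairs 45 members were lower (81.8%; background 35.9%). Without late sgStat5 replicate 1 the blocked count was 0 and the blocked median -0.22, and without late control replicate 2 they were 1 (Tcof1) and -0.16. Such a fit leaves 1 library in a group and takes its spread from the other groups. Without the block the median was -0.16 and -0.072 in these cases, and -0.41 without late sgStat5 replicate 2.

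In the early gate the shift was smaller and no member passed. The median log2 fold change was -0.12 over members against -0.00 over all genes, with 43 of 55 below 0, against 50% of all genes, and pair medians of -0.15 and -0.06. edgeR called 0 members without the block, where 0.269% of all genes passed in either direction, and 0 with it, where 2.33% did. At an unadjusted p under 0.05 there were 0 members without the block, against 887 of 13775 genes, and 7 with it (share of all genes not given here). DESeq2 and limma called 0 members, where they called 248 and 25 genes. Both sgStat5 libraries were nevertheless below both controls for 27 members (49.1%), against 19.4% of all genes, and above both for 3, against 18.7%. In both pairs 35 members were lower (63.6%), against 31.8%. Without early sgStat5 replicate 2, or without either late control library, the blocked fit called 1 member, Tcof1. The median was -0.055 without early sgStat5 replicate 1 and, in the blocked fit, -0.016 without early control replicate 1.

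**Figure D2:**
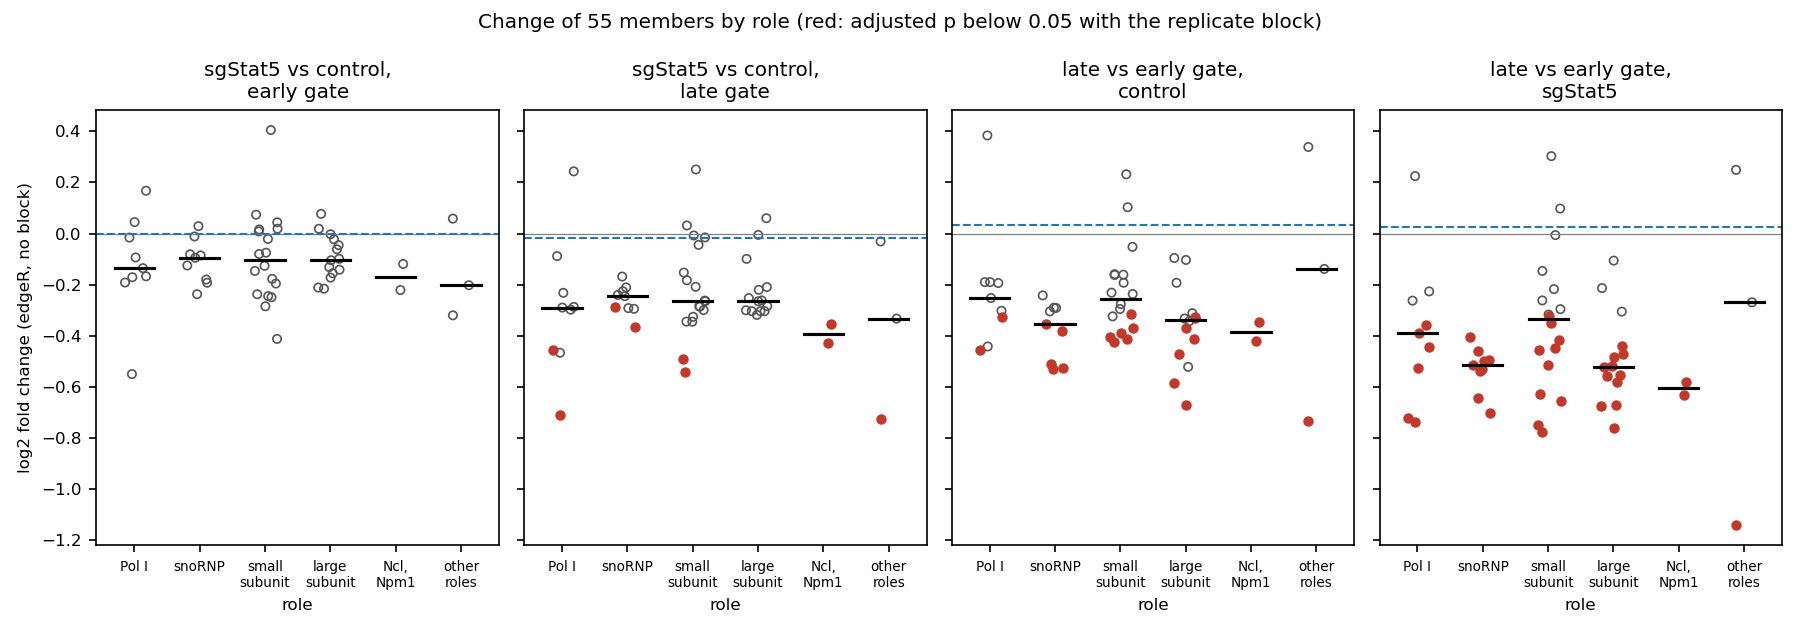
Points are log2 fold changes of single members from the edgeR fit without the block, by role, for sgStat5 against control in each gate and late against early with each guide set; black bars are role medians, the dashed line is the median of all genes, and red marks an adjusted p below 0.05 with the block. Late sgStat5 medians lie between -0.39 for the 2 nucleolar proteins and -0.25 for the snoRNP genes, while early sgStat5 medians lie between -0.20 and -0.09.

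Among the polymerase I factors, the median in late sgStat5 cells was -0.29. In the blocked fit 2 of 9 fell, against 4.49% of all genes. Polr1b, the second-largest subunit of the enzyme (chr2:129100996-129126595, plus strand, mm10), was at 104 and 112 CPM in early controls against 90.7 and 98.0 with sgStat5, and 73.2 and 84.1 in late controls against 49.4 and 65.1 with sgStat5. The sgStat5 libraries lay below the controls in each gate without overlap. In the late gate Polr1b fell by 0.46 on the log2 scale (SE 0.10, adjusted p = 0.0184 in edgeR with the block; 0.267 without it). The early difference was -0.19 (SE 0.09, adjusted p = 0.453 with the block). Polr1a, the largest subunit, differed by -0.29 in the late gate (SE 0.10) and did not pass (adjusted p = 0.281 without and 0.0697 with the block).

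Tcof1 encodes treacle, a nucleolar protein needed for polymerase I transcription. Its level was 468 and 297 CPM in early controls against 287 and 235 with sgStat5, and 638 and 361 in late controls against 362 and 248 with sgStat5. Replicate 1 was the higher library in each group, so the groups overlapped in the late gate even though both pairs were lower. The blocked edgeR fit gave a late log2 fold change of -0.68 (SE 0.11, adjusted p = 0.00592), against -0.71 (SE 0.33, adjusted p = 0.449) without the block. The early difference was -0.51 (SE 0.11), just outside the threshold at an adjusted p of 0.0517 with the block. Unlike most members, Tcof1 had a higher mean in the late than in the early gate. In edgeR the difference was 0.38 in control (adjusted p = 0.623, or 0.0640 with the block) and 0.22 in sgStat5 cells (0.711, or 0.224). Neither difference passed with all 8 libraries in the fit.

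Polr1c, which like Polr1d also serves RNA polymerase III, went the other way. It was at 57.1 and 51.0 CPM in early controls against 63.6 and 57.8 with sgStat5, and 41.4 and 46.2 in late controls against 50.7 and 53.1 with sgStat5. The sgStat5 libraries were above the controls without overlap in both gates. The differences of 0.17 early (adjusted p = 0.952, or 0.596 with the block) and 0.24 late (SE 0.12; 0.491, or 0.247 with the block) did not pass in edgeR.

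Promoter sequences of the members were searched because most members were lower in the same groups. The RefSeq promoter table (GRCm38.p6) matched 44 members with 52 promoters, and the 250 bases before each start were searched for CACGTG, the E-box bound by MYC, and TTCNNNGAA, the spaced palindrome bound by STAT factors. Both motifs read the same on either strand and cannot overlap each other. CACGTG stood in 6 member promoters (11.5%), against 6.02% of all 32851 promoters and 8.32% of the 15581 with a GC content of at least 53.1%, the members' lower quartile. TTCNNNGAA stood in 6 member promoters (11.5%), against 7.02% of all and 4.65% of those GC-rich ones. The member shares are over all 52 promoters, some of them below that GC content, so the GC-rich shares are of an unlike set. The matches in Polr1b, Nop58 and Nol11 are in promoters below it. Genes with CACGTG were Nol11, Rrn3, Nop2, Rrp7a, Utp14b and Utp18, and genes with TTCNNNGAA were Polr1b, Rrn3, Utp15, Nop58, Nol8 and Utp14b. The median late sgStat5 log2 fold change was -0.29 over the 6 members with CACGTG and -0.27 over the 38 without it. Between gates the order was the other way, with -0.26 against -0.33 in control and -0.34 against -0.51 in sgStat5 cells. A match is a run of letters and not a measured binding site.

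The 4 promoters below are printed from 5′ to 3′ on the gene's strand, with motif matches in capitals. Polr1b is shown because it fell and holds TTCNNNGAA 15 bases before its start (chr2:129100746-129100995, plus strand). Rrn3 is shown because it alone with Utp14b holds both motifs (chr16:13780449-13780698, plus strand); its CACGTG matches begin 215 and 48 bases and its TTCNNNGAA match 124 bases before the start. Utp20 (chr10:88826815-88827064, minus strand) and Ncl (chr1:86359456-86359705, minus strand) are shown because they fell and hold neither motif in this window.
Polr1b: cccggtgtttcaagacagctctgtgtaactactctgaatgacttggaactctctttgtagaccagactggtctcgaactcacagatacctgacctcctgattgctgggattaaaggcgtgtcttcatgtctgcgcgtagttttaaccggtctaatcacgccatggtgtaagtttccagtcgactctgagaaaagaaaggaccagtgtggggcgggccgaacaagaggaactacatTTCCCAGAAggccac
Rrn3: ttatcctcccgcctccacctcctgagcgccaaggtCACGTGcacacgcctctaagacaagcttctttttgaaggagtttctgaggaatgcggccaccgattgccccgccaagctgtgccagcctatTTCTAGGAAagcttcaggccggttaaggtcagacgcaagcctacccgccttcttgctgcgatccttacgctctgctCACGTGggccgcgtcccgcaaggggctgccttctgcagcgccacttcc
Utp20: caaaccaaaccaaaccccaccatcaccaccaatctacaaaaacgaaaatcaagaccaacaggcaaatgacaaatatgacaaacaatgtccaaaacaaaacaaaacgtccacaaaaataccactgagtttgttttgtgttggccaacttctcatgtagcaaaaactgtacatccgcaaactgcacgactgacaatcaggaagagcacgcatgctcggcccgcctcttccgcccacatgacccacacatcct
Ncl: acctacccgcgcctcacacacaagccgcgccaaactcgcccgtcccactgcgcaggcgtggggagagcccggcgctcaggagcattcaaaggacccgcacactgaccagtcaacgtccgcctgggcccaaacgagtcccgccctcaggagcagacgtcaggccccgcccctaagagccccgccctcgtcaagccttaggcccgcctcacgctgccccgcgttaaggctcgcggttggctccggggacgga

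Rrn3 joins RNA polymerase I to its promoter. Its level was 111 and 112 CPM in early controls against 100 and 103 with sgStat5, and 92.9 and 102 in late controls against 73.0 and 85.8 with sgStat5. The late groups did not overlap, but the difference of -0.30 (SE 0.11) did not pass in edgeR (adjusted p = 0.309, or 0.0677 with the block). Rrn3 and Polr1a were added to the named genes after their values were seen.

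Among the 9 snoRNP genes the picture was similar. They had a late sgStat5 median of -0.25, and 2 of 9 fell in the blocked fit, against 4.49% of all genes. Nolc1, a chaperone of both snoRNP classes (chr19:46075847-46085543, plus strand), was at 313 and 321 CPM in early controls against 262 and 292 with sgStat5, and 188 and 251 in late controls against 159 and 182 with sgStat5. It fell by 0.36 in the late gate (SE 0.09, adjusted p = 0.0464 in blocked edgeR; 0.371 without the block). Dkc1, the pseudouridine synthase of H/ACA snoRNPs (chrX:75095854-75109776, plus strand), was at 239 and 232 CPM in early controls against 210 and 222 with sgStat5, and 191 and 207 in late controls against 156 and 170 with sgStat5. For both genes the groups were apart in each gate. Dkc1 fell by 0.29 in the late gate (SE 0.07, adjusted p = 0.0482 with the block, 0.232 without), the smallest change among the 9 and an 18.1% lower level. Dkc1 overlaps a gene on the opposite strand, Mpp1, from which unstranded reads cannot be told apart. Fbl was at 209 and 275 CPM in late controls against 174 and 220 with sgStat5, which overlapped, and its difference of -0.29 did not pass (adjusted p = 0.508, or 0.140 with the block).

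Of the 18 small-subunit genes, with a late median of -0.26, 2 fell in the blocked fit, against 4.49% of all genes. Utp20, a very large scaffold protein of the small-subunit processome (chr10:88746607-88826814, minus strand), was at 178 and 149 CPM in early controls against 160 and 136 with sgStat5, and 127 and 121 in late controls against 91.0 and 84.8 with sgStat5. Its late groups did not overlap, and its early groups did. Utp20 fell by 0.49 in the late gate (SE 0.08, adjusted p = 0.00611 in blocked edgeR), while without the block the SE was 0.12 and the adjusted p 0.132. The pair differences were -0.47 and -0.50. In the early gate the difference was -0.15 (SE 0.12, adjusted p = 0.972, or 0.513 with the block). Noc4l, another small-subunit factor (chr5:110648419-110653382, minus strand), was at 86.2 and 96.7 CPM in early controls against 67.7 and 87.4 with sgStat5, and 63.6 and 82.4 in late controls against 42.8 and 57.5 with sgStat5. It fell by 0.54 in the late gate (SE 0.09, adjusted p = 0.00824 with the block, 0.341 without), with groups apart.

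The paralogs Utp14a and Utp14b, of which Utp14b is known for its part in sperm formation, did not pass. Utp14a was at 73.0 and 74.6 CPM in early controls against 76.7 and 78.6 with sgStat5, and 56.7 and 69.0 in late controls against 47.4 and 65.6 with sgStat5. Its differences were 0.07 early and -0.15 late (late adjusted p = 0.803 in edgeR, or 0.508 with the block). Utp14b stayed between 8.89 and 14.0 CPM in all libraries, with differences of 0.04 early and -0.02 late. Reads shared between such copies may be split uncertainly. Small-subunit genes with positive differences included Rrp36, at 15.0 and 19.8 CPM in early controls against 24.4 and 21.7 with sgStat5, where the difference of 0.41 (SE 0.17) had an adjusted p of 0.778, or 0.344 with the block. Utp23 was at 12.8 and 17.5 CPM in late controls against 19.1 and 17.0 with sgStat5, an overlapping difference of 0.25 (SE 0.20, adjusted p = 0.699, or 0.474 with the block).

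None of the 14 large-subunit genes passed in the late sgStat5 comparison, although their median, -0.26, matched that of the small-subunit genes. edgeR called 0 of them with and without the block. Bop1, Pes1 and Wdr12 form one assembly complex. Bop1 was at 98.4 and 132 CPM in late controls against 80.2 and 107 with sgStat5 (-0.30, adjusted p = 0.553, or 0.159 with the block), and Pes1, named after its values were seen, at 132 and 159 against 117 and 135 CPM (-0.21; 0.547, or 0.199). Wdr12 was at 74.1 and 92.7 against 89.2 and 84.7 CPM, a difference of 0.06 (0.913, or 0.802 with the block). Rrp1, the large-subunit gene with the highest FPKM, was nearly level at 332 and 294 CPM in early controls against 327 and 298 with sgStat5, and 299 and 284 in late controls against 303 and 278 with sgStat5. Rrp8, an rRNA methyltransferase, differed by 0.08 in the early gate with overlapping groups (adjusted p = 1, or 0.813 with the block). Rrp12, a small-subunit factor at 122 and 101 CPM in early controls against 87.3 and 80.6 with sgStat5, and 134 and 81.9 in late controls against 116 and 64.0 with sgStat5, differed by -0.41 in the early gate (SE 0.31; 0.955, or 0.340).

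The 2 abundant nucleolar proteins both fell in the late gate in the blocked fit, where 4.49% of all genes fell. Ncl, which binds the ribosomal RNA precursor (chr1:86344719-86359455, minus strand), was at 2566 and 2557 CPM in early controls against 2121 and 2273 with sgStat5, and 1685 and 2138 in late controls against 1289 and 1548 with sgStat5. The sgStat5 libraries were below the controls without overlap in both gates. Ncl fell by 0.43 in the late gate (SE 0.08, adjusted p = 0.0113 in blocked edgeR; 0.240 without the block), and its early difference of -0.22 (SE 0.13) did not pass (0.910, or 0.264 with the block). Npm1, a chaperone that moves ribosomal proteins and subunits (chr11:33152498-33163206, minus strand), was at 2015 and 2209 CPM in early controls against 1814 and 2075 with sgStat5, and 1394 and 1926 in late controls against 1178 and 1419 with sgStat5. Its groups overlapped in both gates, as late control replicate 1 was below late sgStat5 replicate 2. Npm1 fell by 0.35 (SE 0.08, adjusted p = 0.0249 with the block, 0.455 without).

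Srm, Nol3, Nol4 and Nol4l have other known or unsettled roles. Srm encodes spermidine synthase of the polyamine pathway, which is often active with ribosome production (chr4:148591513-148594619, plus strand). Its level was 177 and 204 CPM in early controls against 145 and 161 with sgStat5, and 85.7 and 143 in late controls against 50.8 and 87.5 with sgStat5. The late groups overlapped narrowly. Srm fell by 0.73 in the late gate (SE 0.16, adjusted p = 0.0228 in blocked edgeR; SE 0.30 and 0.390 without the block), the largest change of the 9 and a level 39.6% lower. The early difference of -0.32 (SE 0.30) did not pass (adjusted p = 0.990, or 0.448 with the block). Nol3 is an inhibitor of cell death also called ARC. It was between 6.07 and 11.3 CPM, with differences of 0.06 early and -0.03 late, and Nol4l was at 25.4 and 19.8 CPM in late controls against 18.3 and 17.6 with sgStat5 (-0.33, adjusted p = 0.465, or 0.228 with the block).

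**Figure D3:**
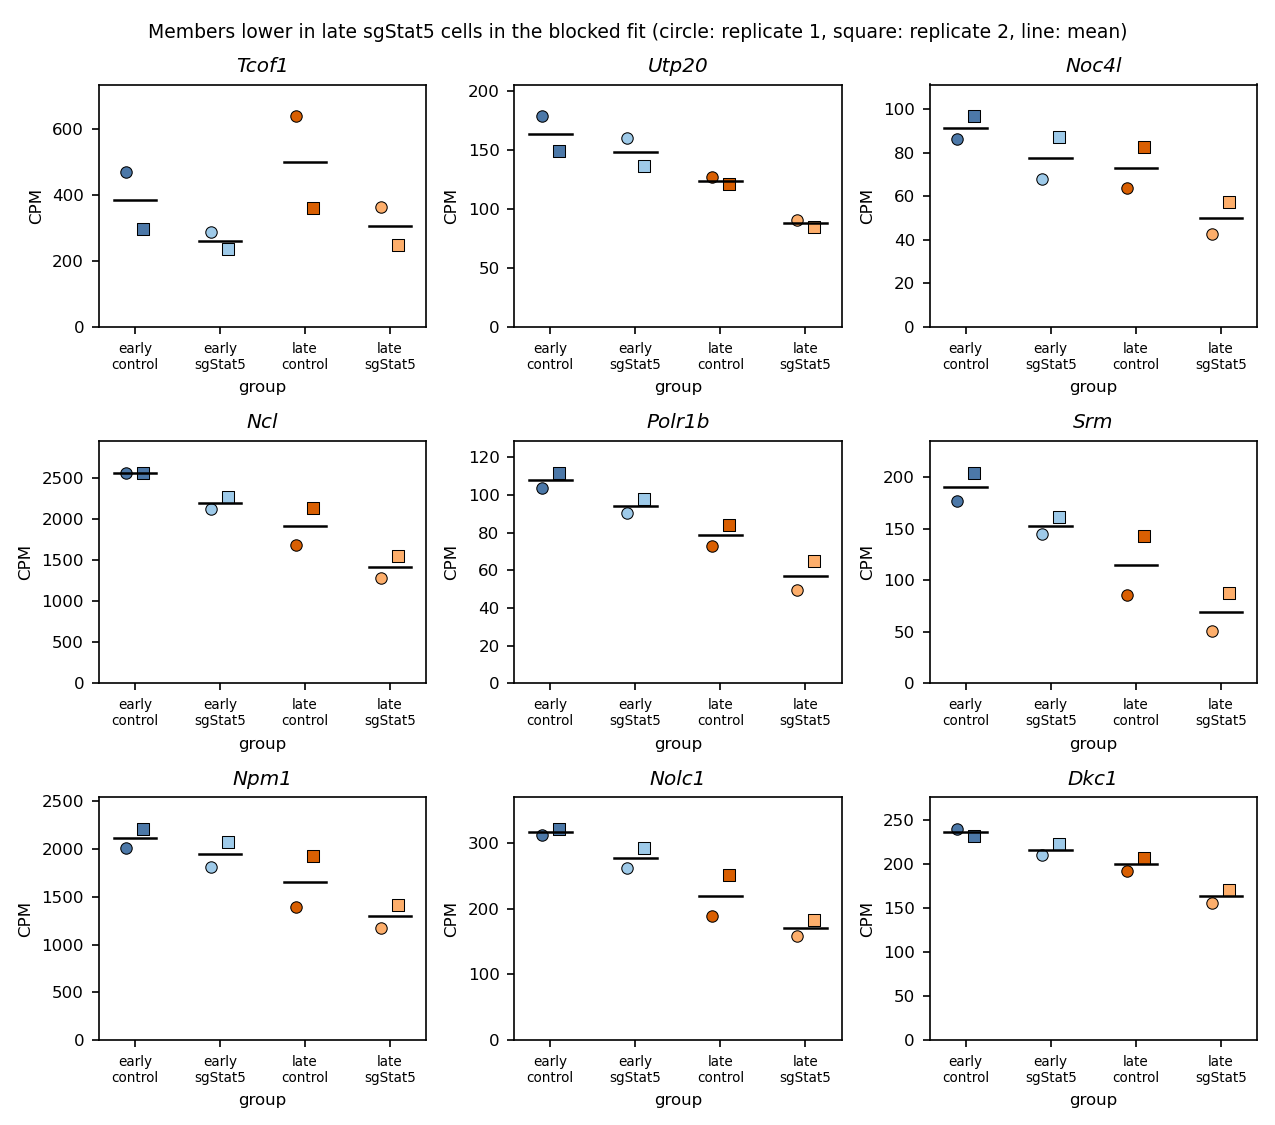
Points are CPM of single libraries on axes that start at 0 for the 9 members called lower in late sgStat5 cells by the blocked edgeR fit, in the 4 groups; circles are replicate 1, squares replicate 2 and bars group means. In all 9 both late sgStat5 libraries are below the late control library of the same number; for Srm, Npm1 and Tcof1 the groups still overlap.

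The list of 111 other pathway genes, all of them tested, gives the setting of these members. In late sgStat5 cells its median was -0.16 with 93 genes below 0 (83.8%; background 52.3%). The parts differed. The median was -0.17 over 31 small-subunit, -0.20 over 44 large-subunit and -0.13 over 13 RNA exosome genes. It was -0.03 over the 9 polymerase I genes (55.6% below 0) and 0.05 over the 14 MYC and polyamine genes (42.9% below 0). Without the block edgeR called 1, which was higher, against 1.71% of all genes in either direction. With the block it called 6 lower (5.41%) and 1 higher, against 4.49% and 3.72% of all genes, so the share called lower was near the background. The called gene in both fits was Mxd1, a repressor that competes with MYC for its partner MAX. Mxd1 was at 9.60 and 12.9 CPM in early controls against 17.3 and 18.5 with sgStat5, and 15.7 and 12.8 in late controls against 36.6 and 30.7 with sgStat5, above the controls without overlap in both gates. It rose by 1.24 in the late gate (SE 0.20, adjusted p = 0.0338 in edgeR, 0.00478 with the block), and the early difference of 0.67 did not pass (0.471, or 0.166 with the block). Myc itself was at 209 and 225 CPM in early controls against 217 and 227 with sgStat5, and 139 and 196 in late controls against 177 and 197 with sgStat5. Its differences of 0.03 early (adjusted p = 1, or 0.939 with the block) and 0.16 late (SE 0.16; 0.775, or 0.401) did not pass.

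The 6 pathway genes called lower, a share near that of all genes, were Heatr1, Mdn1, Pelp1, Rsl1d1, Odc1 and Azin1. Mdn1 was added to the named genes to complete these 6. Odc1, the rate-limiting enzyme of polyamine synthesis that acts ahead of Srm, was at 384 and 394 CPM in early controls against 315 and 334 with sgStat5, and 218 and 303 in late controls against 156 and 203 with sgStat5. It fell by 0.54 in the late gate (SE 0.18 and adjusted p = 0.276 in edgeR without the block, 0.0182 with it). Azin1, an inhibitor of the protein that degrades ODC1, differed by -0.36 (0.149, or 0.0208 with the block). Odc1 and Azin1 were the 2 called lower with the block among the 14 MYC and polyamine genes. Of these 14, 8 had late differences above 0, and 1 (Mxd1) was called higher. Heatr1, a small-subunit processome factor also needed by polymerase I, was at 140 and 158 CPM in late controls against 93.5 and 117 with sgStat5, without overlap (-0.50; 0.131, or 0.00648 with the block). In the early gate edgeR called 0 of the 111 with or without the block. Without it 2 had an unadjusted p under 0.05, against 887 of 13775 genes. The early median was -0.07 over the 111, -0.00 over the 9 polymerase I genes and 0.02 over the 14 MYC and polyamine genes.

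Whether the sgStat5 difference itself changed across commitment was tested as an interaction. The late difference was more negative than the early one for 49 of 55 members, against 53.3% of all genes, and the median of the difference between the effects was -0.14. That median turned to 0.030 without late control replicate 2, and it was -0.059 without late sgStat5 replicate 1 and -0.30 without late control replicate 1. In the blocked fit it ran from -0.24 to -0.048 when 1 library was left out. edgeR called 0 members and 0% of all genes with and without the block. At an unadjusted p under 0.05 there were 0 members without the block, against 302 of 13775 genes, and 4 with it (share of all genes not given here). DESeq2 and limma called 0 members. In both pairs it was more negative for 40 members (72.7%; background 32.1%). Without the block the difference between the effects was -0.35 for Utp20 (SE 0.17), -0.21 for Ncl and -0.41 for Srm (SE 0.42). In edgeR with the block their adjusted p-values were 0.693, 0.854 and 0.847. Other extreme members were Rrp36 at -0.45, Nol10 at -0.35, Utp23 at 0.50, Rrp12 at 0.15 and Wdr12 at 0.11, with adjusted p-values of 0.759 to 0.954 in the blocked fit. The effect was therefore not shown to differ between the gates.

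The second axis of the design is the gate. In control cells 51 of 55 members had lower fitted levels in the late gate, against 46% of all genes. The median was -0.31 on the log2 scale against 0.03 over all genes, and pair medians of -0.45 and -0.20. edgeR called 0 members without the block, where 0.0145% of all genes passed. Unadjusted, 25 members had a p under 0.05, all lower, against 2049 of 13775 genes, 908 of them lower. DESeq2 called 5 members, a larger share than that of all genes, and limma on FPKM 0. In the blocked fit 23 members (41.8%) fell, against 4.3% of all genes. Both late libraries were below both early ones for 42 members (76.4%; background 24.2%) and above both for 2 (background 24.6%), and 50 members were lower in both pairs (90.9%; background 34%). This blocked count became 0 without early control replicate 1 and 0 without late control replicate 1, where the blocked medians were -0.24 and -0.24. Without the block the median was -0.17 without late control replicate 1 and -0.50 without late control replicate 2.

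In sgStat5 cells the same contrast had a median of -0.47, with pair medians of -0.55 and -0.38 and 51 of 55 members below 0 (background 47.6%). edgeR called 1 member, Utp20, without the block (background 0.312% lower). DESeq2 called 25 members, a larger share than that of all genes, and limma 0. In the blocked fit 39 members (70.9%) fell and 0 rose, against 11.5% of all genes called lower and 11.3% called higher. Both late libraries were below both early ones for 48 members (87.3%; background 28.1%), and 49 were lower in both pairs (89.1%; background 35.6%). The blocked count was 10 without late sgStat5 replicate 1 and 20 without early sgStat5 replicate 1, with blocked medians of -0.42 and -0.41. By role, the blocked fit called 9 of 9 snoRNP genes, 11 of 14 large-subunit, 10 of 18 small-subunit and 6 of 9 polymerase I genes, and both nucleolar proteins. The gate contrasts and the sgStat5 contrasts share libraries, so their values are not independent.

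Utp20 fell by 0.75 from the early to the late gate in sgStat5 cells (SE 0.12, adjusted p = 0.0486 in edgeR, 0.000655 with the block), a level 40.6% lower, and its late libraries were below all early ones. For this sgStat5 difference DESeq2 gave an adjusted p of 1.71e-05, while limma on log2(FPKM + 1) gave 0.0704 and did not call it. In control cells the difference was -0.41 (SE 0.12, adjusted p = 0.247, or 0.0169 with the block). Srm had the largest difference of the set, -1.14 in sgStat5 (SE 0.30, 0.0953, or 0.00153 with the block) and -0.74 in control cells (0.321, or 0.0167). Ncl followed the same direction, with -0.63 in sgStat5 (0.0692, or 0.00121) and -0.42 in control cells (0.255, or 0.0126).

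In control cells the blocked fit called 7 of 14 large-subunit, 5 of 9 snoRNP, 6 of 18 small-subunit and 2 of 9 polymerase I genes, both nucleolar proteins and Srm. The same fit called 4.3% of all genes lower. Rrp15, a large-subunit precursor protein (chr1:186721087-186749358), was at 74.7 and 78.8 CPM in early controls against 64.7 and 71.5 with sgStat5, and 42.1 and 54.3 in late controls against 36.2 and 44.0 with sgStat5. All 4 late libraries were below all 4 early ones. Rrp15 fell in the blocked edgeR fit by 0.68 in control cells (SE 0.10, adjusted p = 0.00606; 0.210 without the block) and had an adjusted p of 0.00169 with the block in sgStat5 cells (-0.76 and 0.0704 without it). Bop1 was at 173 and 173 CPM in early control and 98.4 and 132 in late control libraries and fell by 0.60 (SE 0.11, adjusted p = 0.0141 with the block, 0.247 without). Nop2, an rRNA cytosine methyltransferase, was at 155 and 148 CPM in early control and 98.7 and 120 in late control libraries, a difference of -0.47 (0.213, or 0.0229 with the block).

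For the snoRNP core, Nhp2 of the H/ACA class was at 181 and 181 CPM in early control and 104 and 149 in late control libraries (-0.51, adjusted p = 0.302 in edgeR, or 0.0300 with the block). Nop58 of the box C/D class was at 319 and 331 CPM in early controls against 289 and 326 with sgStat5, and 225 and 285 in late controls against 190 and 241 with sgStat5. Both genes had lower levels in every late than in every early control library. In edgeR Nop58 passed with the block in control (-0.35; 0.0300) and in sgStat5 cells (-0.51; 0.00395), but in neither without it. Nol10, a small-subunit factor, was at 62.9 and 71.3 CPM in early controls against 65.3 and 69.6 with sgStat5, and 45.8 and 54.1 in late controls against 37.4 and 41.2 with sgStat5. Its gate difference was -0.43 in control (0.255, or 0.0227 with the block) and -0.78 in sgStat5 cells (SE 0.13; 0.0540, or 0.00104). Nop9 and Rrp1b, factors of the small and the large subunit, also fell between the gates in sgStat5 cells with the block (adjusted p = 0.00244 and 0.00398). Neither passed in the edgeR fit without the block. Bop1, Nhp2 and Nop9 overlap genes on the opposite strand, as do Utp14a, Rrp8 and Nol3, so their counts can hold reads of those genes.

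In each guide arm 4 of 55 members had higher fitted levels in the late gate. Besides Tcof1, Nol3 had positive differences of 0.34 in control and 0.25 in sgStat5 cells, Rrp36 and Utp3 of 0.23 and 0.10 in control, and Utp23 and Rrp12 of 0.30 and 0.10 in sgStat5 cells, and none passed. Utp3 was named after its values were seen. Of the other 111 pathway genes 33 (29.7%) fell with the block in control cells, against 4.3% of all genes. In sgStat5 cells 60 (54.1%) fell and 5 rose, against 11.5% and 11.3% of all genes. The medians in control and sgStat5 cells were -0.27 and -0.36 over the 111. They were -0.03 and -0.09 over the 9 polymerase I genes, and -0.05 and -0.08 over the 14 MYC and polyamine genes. Myc differed by -0.38 between gates in control (blocked adjusted p = 0.0478 in edgeR) and by -0.25 in sgStat5 cells (0.116). Without the block Myc passed in neither arm.

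Several other measures moved with the groups. The summed level of 8 proliferation genes was 3470 and 3975 CPM in early controls against 3573 and 3796 with sgStat5, and 4603 and 4696 in late controls against 4289 and 4069 with sgStat5. It was higher in late than in early libraries, the opposite order to the members, and lower in late sgStat5 than in late control libraries. As for most members, all 8 genes were lower in late sgStat5 cells in both pairs, with a median log2 fold change of -0.15. The late difference was more negative than the early one in both pairs for all 8, with a median of -0.13. The 8 stromal markers, with Lum at 0 in every library, summed to 36.8 and 272 CPM in early controls against 5.39 and 220 with sgStat5, and 115 and 466 in late controls against 147 and 411 with sgStat5, higher in each replicate 2. Myeloid markers summed to 28.1 and 26.3, 67.0 and 45.5, 8.62 and 9.26, and 11.0 and 17.9 CPM in that order, and B-cell markers to 0.315 to 5.92 CPM, with Ms4a1 at 0. Mast and erythroid markers summed to 662 and 316, 757 and 369, 320 and 243, and 499 and 331 CPM, higher with sgStat5 in all 4 pairs. NK and innate lymphoid markers (Ncr1, Nkg7, Klrb1c, Gata3, Zbtb16 and Rora) summed to 313 and 307, 363 and 330, 252 and 276, and 276 and 322 CPM. This sum was also higher with sgStat5 in all 4 pairs. Of its 6 genes 1 was below 1 CPM in every library, and Gata3 is also among the T-progenitor markers. T-progenitor markers (Il2ra, Thy1, Cd3g, Gata3, Tcf7, Bcl11b and Ptprc) summed to 5690 and 5124, 4347 and 4253, 7195 and 6090, and 5887 and 5260 CPM. Their sum was lower with sgStat5 in both gates, although Bcl11b itself was higher with sgStat5 in both late pairs. The part of these cells and of proliferation in the results was not tested.

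**Figure D4:**
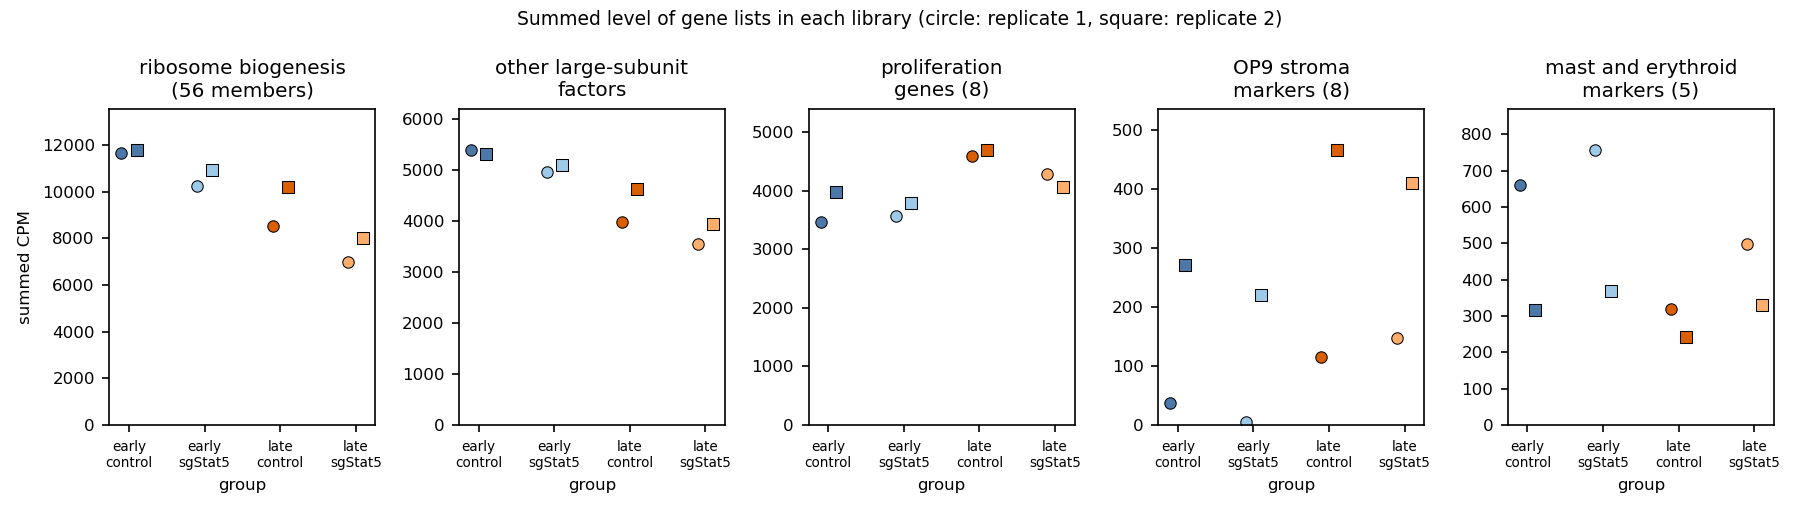
Points are summed CPM of single libraries in the 4 groups for the 56 members, other large-subunit genes, and proliferation, stromal, and mast and erythroid markers, each panel on its own axis; circles are replicate 1 and squares replicate 2. The members go from 11649 and 11785 CPM in early control to 6984 and 8016 in late sgStat5 libraries, while proliferation genes are highest in late control at 4603 and 4696.

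Replicates differed within groups as well. The median log2 difference of replicate 1 from replicate 2 over the 55 members was -0.03 in early control, -0.09 in early sgStat5, -0.26 in late control and -0.20 in late sgStat5 cells. The late gaps stand beside a late sgStat5 median of -0.28. Tcof1, Rrp1, Nol4l, Rrp12 and Utp20 were higher in replicate 1 in all 4 groups, and 23 members were lower in it in all 4, against 19.3 and 19.5% of all genes.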

How the data were processed

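RNA came from sorted cells by the RNeasy Micro kit, and libraries by the NEBNext Ultra RNA kit, which keeps no strand. Tools named in the submitters' processing notes are bcl2fastq 1.8.4, STAR 2.4.0 and RSEM 1.2.25, with GRCm38/mm10. Per the file headers, HOMER counted tags over exons; the deposited counts are raw, with 1 transcript per gene. The deposited FPKM values come from the same program, per the file headers. Of the 56 members 13 overlap a gene on the opposite strand, and 9 have another transcript in the FPKM table.

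Counts were tested in edgeR 4.0.16 (R 4.3.3): filterByExpr kept 13775 genes, TMM scaled the 8 libraries, and a two-sided quasi-likelihood F-test used 1 mean per group. Benjamini-Hochberg adjustment ran over all genes tested, with a threshold of 0.05. The SE (standard error) is the size of the log2 fold change over the root of its F statistic. The scripts were tested on simulated data that held larger changes than most seen here and no replicate effect. That test cannot show how the choice of block bears on the calls.

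Replicate numbers recur in the 4 groups. Across genes, the deviation of replicate 1 from the mean of its group correlated between every pair of groups (6 coefficients from 0.421 to 0.578), so the numbers were taken to pair libraries. This pairing comes from the data. No label tells whether replicates come from different animals or cultures, so the p-values reflect the spread among these libraries alone. The common dispersion was 0.0853 without and 0.0178 with the block, with 4 and 3 residual degrees of freedom.

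Alternatives were the block, RLE scaling, DESeq2 1.42.0, no filter, a minimum of 5 CPM in 2 libraries, limma 3.58.1 on log2(FPKM + 1), leaving out each library, and leaving out the members with other roles. Members and gene lists were chosen with earlier results of these data known. Genes named are Utp20, Ncl and Srm throughout, up to 12 members called per comparison by lowest blocked p, the 3 largest differences in each direction, the gene of highest FPKM per role, the Utp14 paralogs, members with other roles, Myc and up to 6 pathway genes per sgStat5 comparison, and the targeted and gate genes; others are marked where named. Coordinates count from 1.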

Additional observations from a re-analysis of the deposited data

How the results depend on the processing

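With 2 libraries per group, the counts of calls depended on the fit. Without the block, edgeR called 37 genes for sgStat5 in the early and 235 in the late gate, 0 for the difference, and 2 and 134 between gates in control and sgStat5 cells, and 0, 0, 0, 0 and 1 members. The replicate block gave 321, 1132, 0, 1507 and 3144 genes and 0, 9, 0, 23 and 39 members, and DESeq2 gave 248, 631, 2, 588 and 1659 genes and 0, 1, 0, 5 and 25 members. With no filter on low counts, 114 genes were called in the early gate, 83 between gates in control and 760 in sgStat5 cells, with 12 members in the last. With a minimum of 5 CPM, 231 genes and 2 members were called between gates in sgStat5 cells, and the late sgStat5 median was -0.25. With limma on log2(FPKM + 1) that median was -0.20, and 0 genes between gates in control cells and 0 members in sgStat5 cells were called.

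Leaving out 1 library at a time without the block gave 0 to 30 genes in the early gate, 63 to 151 in the late gate, 0 to 32 and 0 to 529 between gates, and 0 to 8 members between gates in sgStat5 cells. The medians then ran from -0.17 to -0.055 (early), -0.41 to -0.072 (late), -0.30 to 0.030 (difference), -0.50 to -0.17 and -0.62 to -0.35 (gates). With the block the same step gave 0 to 1, 0 to 8, 0 to 26 and 10 to 40 members, in the order early, late and gates, and medians of -0.21 to -0.016, -0.32 to -0.16 and -0.24 to -0.048 for early, late and difference. These blocked counts hold calls in either direction, as Tcof1 was called higher in some of the gate fits. The matching counts of all genes are not given here, so the blocked counts have no background to be read against. Members' medians stayed below 0 in every setting run, except that of the difference without late control replicate 2. The cause was not tested.

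Among single genes, 24 of the alternative values changed sign, all of differences that passed in neither fit. Without 1 library the log2 fold change ran from -0.026 to 0.090 (early) and -0.084 to 0.45 (late) for Myc, -0.13 to 0.76 (gates, sgStat5) and -0.46 to 0.43 (early) for Nol3, -0.34 to 0.53 for Rrp12 and -0.85 to 0.036 for Srm (difference), and -0.051 to 0.20 for Rrp8 (early). It ran from -0.070 to 0.73 and -0.072 to 0.47 for Tcof1 (gates), -0.41 to 0.061 for Utp14a (late), -0.059 to 0.14 (early) and -0.29 to 0.21 (late) for Utp14b, and -0.063 to 0.29 (difference) and -0.11 to 0.25 (late) for Wdr12. With a minimum of 5 CPM the late value was 0.00038 for Nol3 and 0.015 for Utp14b, and on FPKM it was 0.021 and 0.022. Of the rest, 1009 kept their direction and side of the threshold, 74 newly passed it and 13 no longer passed.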
